A study of Danio rerio with 8 samples.

Results

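The regions described here were accessible by ATAC-seq in wild-type (WT) zebrafish embryos at both stages examined and were listed at neither stage in embryos without p63. The peaks of the 4 deposited lists were merged wherever they overlapped by at least 1 bp, and a region was retained when it held a peak of both WT lists and no peak of either *tp63* mutant list. On chromosomes 1 to 25, leaving out chromosome 4 from 30 Mb on, 3754 of 133688 merged regions (2.81%) met this rule (137841 regions were found over all sequences). They are called WT-only regions below. They were thus selected on the deposited peaks themselves, so their numbers and strengths are descriptions and carry no test.

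The gene *tp63* encodes p63, a DNA-binding relative of p53 that is needed to form and maintain stratified epithelia. In the zebrafish embryo it acts in the surface ectoderm, from which the epidermis, the fin fold and the apical ridge of the pectoral fin bud derive. It recognises a pair of adjacent decameric half-sites, and members of its family can engage DNA that is wrapped in nucleosomes, which places p63 among the candidate pioneer factors. In ATAC-seq, the Tn5 transposase cuts where nucleosomes leave DNA exposed, so that promoters, enhancers and insulators appear as short peaks. In a whole embryo such a peak averages over every tissue, and an element open in a small cell population gives a weak peak.

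The data came from 8 libraries in 4 groups of 2 replicates, with whole dechorionated and deyolked embryos of genotype WT or *tp63* -/- at 8 somites or at 36 h post fertilization (hpf). The embryos of 8 somites were assayed singly and came from heterozygous parents, while those of 36 hpf were small pools. The mutation is a CRISPR/Cas9 deletion that brings a premature stop into an exon used by all *tp63* isoforms, on a background of AB/Tübingen fish. The labels and methods name no other allele or treatment for these embryos. Input and stage therefore changed together and cannot be told apart. The authors deposited 1 list per group, made from both replicates, so none of the values below has a replicate spread, and read depth is unknown from these lists. The WT lists held 96625 peaks (8 somites) and 84703 peaks (36 hpf), and the mutant lists held 79893 and 76556. Missing from a list means only that no peak passed an irreproducible discovery rate (IDR) of 0.1, a limit read from the listed peaks. The IDR is estimated from the ranks of a peak in both replicates, and a weak peak can fail it even where the replicates agree. Fewer cells of a type and lower accessibility per cell cannot be told apart in these embryos.

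In order to place the number of WT-only regions, the same count was made for the other pairs of lists from opposite stages. Of 56789 regions found in both WT lists, 3754 were in neither mutant list, that is 6.61% (95% Wilson interval 6.41 to 6.82%, counting error only, as for all intervals below). Of 49158 regions found in both mutant lists, 1175 were in neither WT list, or 2.39% (2.26 to 2.53%). These are called mutant-only regions below. Pairs of mixed genotype gave 2588 regions for WT at 8 somites with mutant at 36 hpf, and 1733 for the reverse. The WT pair was thus the most numerous and the mutant pair the least, in the order of the lengths of the lists they come from. When every list was shortened to its 76556 top-ranked peaks, the WT pair alone held 1957 regions, the mutant pair 1710, and the mixed pairs 1856 and 1735. The excess over the mutant pair fell from 3.19 to 1.14 times by this step. Of the 3754 regions, 1893 (50.4%) had both WT peaks within these shortened lists, while 1462 had a WT peak of 8 somites and 763 a WT peak of 36 hpf that ranked lower.

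**Figure D1:**
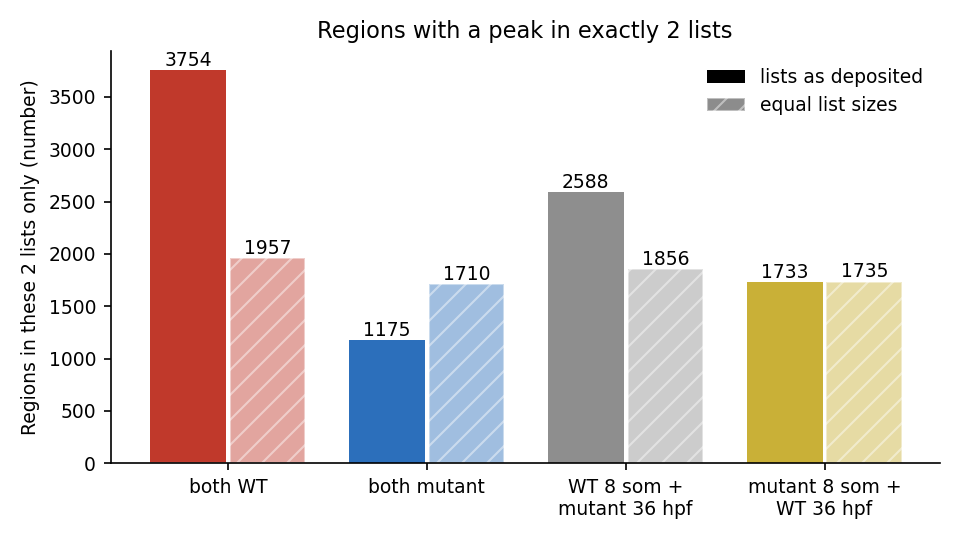
Number of regions (vertical axis) with a peak in exactly the 2 lists named below each pair of bars, with the lists as deposited (solid) and with 76556 top-ranked peaks from each (hatched). Of the versions shown, the 3754 regions of both WT lists stand out only with the deposited lists. At equal sizes the 4 numbers lie between 1710 and 1957.

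Most WT-only regions were weak peaks. Peaks were ranked within each list by the deposited −log10 p-value, and the rank was written as a percentile in which 100 is the strongest. The median WT-only region stood at percentile 26.8 of the WT list at 8 somites and at 23.7 of that at 36 hpf, against 66.5 and 62.8 over all regions of both WT lists. Their median fold enrichment over background was 6.67 at 8 somites and 5.11 at 36 hpf, against 8.92 and 6.83 over all regions of both lists. At 8 somites, the fold enrichment ran from 2.32 to 17.7 and the −log10 p-value from 4.37 to 59.3 (median 15.2). At 36 hpf, it ran from 2.09 to 15.4 and the −log10 p-value from 3.08 to 71.4 (median 13.7). In the list of 8 somites 83.4% of them lay below the median peak, and in the list of 36 hpf 88.3%. The mutant-only regions had lower median percentiles, 22.0 and 19.8 in the mutant lists of 8 somites and 36 hpf. The mutant lists are shorter, however. Counted from the strongest peak, the median ranks of the mutant-only regions were 62286 and 61418, ahead of 70748 and 64630.5 for the WT-only regions. Their median −log10 p-values were 13.2 and 15.2, against 15.2 and 13.7 for the WT-only regions. Their median fold enrichment, 6.21 and 5.31, was lower than that of the WT-only regions at 8 somites but higher at 36 hpf. Mutant peaks of the mixed pairs had similar median percentiles, 22.1 at 8 somites and 19.9 at 36 hpf. The WT peaks of the mixed pairs stood at 27.7 and 24.0, near those of the WT-only regions.

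How strong a WT-only region was at one stage said little about its strength at the other. The rank correlation between its percentiles at 8 somites and at 36 hpf was 0.17 over 3754 regions (Pearson's r 0.18), against 0.68 over all 56789 regions of both WT lists and 0.18 over the 1175 mutant-only regions. These values describe regions of shared libraries, and the selection of weak peaks narrows the range of ranks. A total of 2055 regions ranked higher at 8 somites and 1699 at 36 hpf, with a median difference of 2.58 percentile points. This direction was not particular to them. The median percentile was also higher at 8 somites over all regions of both WT lists (66.5 against 62.8) and among mutant-only regions (22.0 against 19.8). Below the median of both lists were 2806 WT-only regions, 510 were above it at 8 somites only, 323 at 36 hpf only, and 115 at both stages. Above percentile 75 were 64 regions at 8 somites and 24 at 36 hpf, and only 3 were so at both.

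**Figure D2:**
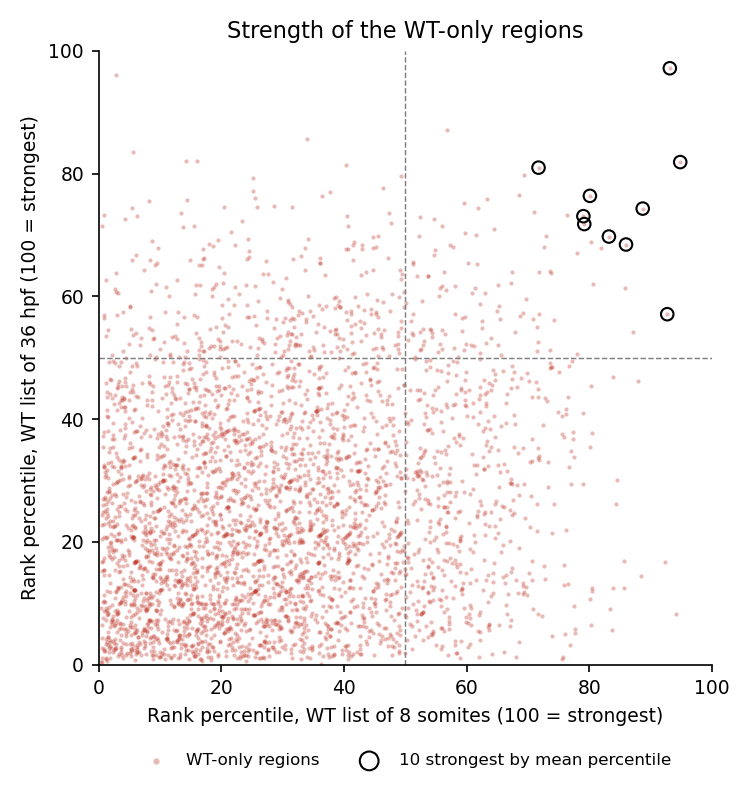
Rank percentile of each of the 3754 WT-only regions in the WT list of 8 somites (horizontal axis) and of 36 hpf (vertical axis), with 100 for the strongest peak, dashed lines at the medians and circles around the 10 strongest regions by mean percentile. Most points fill the lower left of the plot (2806 regions), and 115 lie in the upper right.

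With the lists as deposited, the 115 regions above the median of both WT lists were 0.383% of the 29992 WT regions of that strength (0.320 to 0.460%). By the same rule, 31 of 26114 regions of both mutant lists were in neither WT list, or 0.119% (0.0836 to 0.168%). The mixed pairs held 53 and 47 such strong regions, and their share of all regions of that strength was not computed. Regions above both medians were not counted with lists of equal size. As parts of their own sets, strong regions were 3.06% of the WT-only, 2.64% of the mutant-only and 2.05% and 2.71% of the mixed regions. The 115 regions had a median fold enrichment of 9.55 at 8 somites and 7.09 at 36 hpf and a median width of 346 bp. In 97 of them both WT peaks had an IDR of at most 0.01. They lay on 23 of the 25 chromosomes, at most 9 on one, and 70 ranked higher at 8 somites than at 36 hpf. A mutant peak lay within 1 kb of 15 of them (13.0%), close to the 15% among all WT-only regions, and 22 had none within 10 kb.

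At the very top of the ranks the order of the counts turned, but on few regions. With a mean percentile over 70, 23 WT-only and 17 mutant-only regions remained, and over 80 there were 3 WT-only and 9 mutant-only regions. The mixed pairs held 5 and 1 at that level. With a mean percentile of 80 to 90, 2 of 7538 regions of both WT lists were WT-only. Of the regions of both mutant lists, 5 of 6470 were mutant-only there. Above 90 it was 1 of 7448 against 4 of 6508, and the Wilson intervals of these shares met in both ranges. The strongest mutant-only region, chr5:52581385-52581736 (named after its value was seen), had a mean percentile of 96.2, above every WT-only region.

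The 10 strongest WT-only regions by mean percentile were all on different loci of 8 chromosomes, with 3 on chromosome 6. Coordinates refer to GRCz10, and what the annotation of that assembly places there was not analysed here. The first, chr16:55266304-55266592, had a fold enrichment of 14.4 at 8 somites (rank 6610 of 96625) and of 13.1 at 36 hpf (rank 2417 of 84703), with both values of −log10 IDR at the maximum of 5. Its summits at both stages were 6 bp apart, and the nearest mutant peaks began 2391 bp (8 somites) and 2394 bp (36 hpf) away. It was the only WT-only region above percentile 90 of both WT lists. The second, chr6:22130577-22131042, had fold enrichments of 13.9 (rank 4970) and 8.67 (rank 15362), and mutant peaks of both stages lay 4663 bp from it. The third, chr6:32849275-32849578, had fold enrichments of 14.1 (rank 10882) and 9.32 (rank 21780), with the nearest mutant peaks 9.90 kb and 32.4 kb away. The nearest peak of each mutant list thus lay a few kilobases or more from these 3 regions.

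Among the next regions, chr5:3375453-3375687 was nearly as strong at both stages, with fold enrichments of 9.14 at 8 somites and 8.22 at 36 hpf. Stronger at 8 somites were chr12:3113434-3113817 (13.3 against 7.81), chr21:23882791-23883383 (13.8 against 8.75), chr19:46197330-46197672 (12.8 against 9.17) and chr6:57603722-57604118 (10.9 against 8.38). The percentiles of these 4 were likewise higher at 8 somites. The region chr20:42920942-42921287 had the opposite order of ranks, at percentile 71.7 at 8 somites and 81.0 at 36 hpf, but not of fold enrichment (11.5 against 10.4). It also lay close to mutant peaks, 234 bp from one at 8 somites and 292 bp from one at 36 hpf, so an open element was listed beside it in both mutant lists. The last, chr11:36365241-36365583, was far from any mutant peak, with gaps of 61.6 kb at 8 somites and 61.7 kb at 36 hpf. Its fold enrichment was 17.2 at 8 somites and 7.50 at 36 hpf.

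Some WT-only regions were strong at one stage only. These were chosen after their values were seen, as the 6 regions above percentile 90 of at least 1 WT list, of which 3 are described above. The region chr20:29582090-29582417 had the highest fold enrichment of all WT-only regions at 8 somites, 17.7 (percentile 94.1), and 4.79 at 36 hpf (percentile 8.31). Of the same kind was chr22:10215456-10215731, with a fold enrichment of 17.1 at 8 somites (percentile 92.3) and 5.21 at 36 hpf (percentile 16.7). The reverse was seen at chr6:25161320-25161605, which had a fold enrichment of 5.6 at 8 somites (percentile 2.83) and of 15.4 at 36 hpf (percentile 96.0). No mutant peak lay within 10 kb of these 3 regions at either stage. Of the 64 WT-only regions above percentile 75 at 8 somites, 23 were at 25 or below at 36 hpf. Of the 24 above percentile 75 at 36 hpf, 6 did the opposite. The same shares were not computed over all regions of both WT lists.

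Whether a region was listed in the mutant varied steeply with its strength in WT. Regions of both WT lists were divided into 10 bands by the mean of their percentiles. In the weakest band, 52.4% (48.7 to 56.2%) were in neither mutant list, in the band of 40 to 50 6.76% (6.18 to 7.38%), and in the strongest 0.0134% (1 of 7448 regions). The reverse share, of regions of both mutant lists in neither WT list, fell from 29.3% (25.7 to 33.2%) through 1.64% (1.35 to 2.00%) to 0.0615% (4 of 6508 regions). With the lists as deposited, the WT share was therefore higher in each of the 8 bands up to percentile 80.

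With lists of equal size, ranked by −log10 p-value, the WT share was above the mutant share, with intervals that did not meet, only between percentiles 30 and 60. In the weakest band the order was reversed, with 29.99% (26.8 to 33.4%) of WT and 40.9% (37 to 44.9%) of mutant regions missing from the other genotype. Between percentiles 20 and 30 both shares were alike, at 13.9%. Between 40 and 50 the WT share was 3.47% (3.04 to 3.97%) and the mutant share 2.37% (2.01 to 2.80%), with 2.69% (2.31 to 3.14%) and 2.74% (2.36 to 3.19%) for the pairs of mixed genotype. Between 50 and 60 the WT share was 1.43% (1.16 to 1.75%), the mutant share 0.663% (0.489 to 0.898%) and those of the mixed pairs 0.854% (0.655 to 1.11%) and 1.05% (0.824 to 1.34%). In these bands the pairs stood in the order WT, mixed, mutant. The WT interval met those of both mixed pairs between 40 and 50 and that of 1 of them between 50 and 60. Above percentile 60 the WT and mutant intervals met in each band. When peaks were ranked by fold enrichment instead, the WT share was the higher one over a wider range, with intervals that did not meet from percentile 20 to 70. It was then 14.5% against 12.3% between 20 and 30, 5.82% against 3.36% between 40 and 50, 2.77% against 1.47% between 50 and 60, and 1.401% (1.14 to 1.72%) against 0.554% (0.396 to 0.773%) between 60 and 70. In the weakest band it was again lower, at 23.6% against 44.2%. No test was possible with 1 list per group, and the variation between embryos is not in these intervals.

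**Figure D3:**
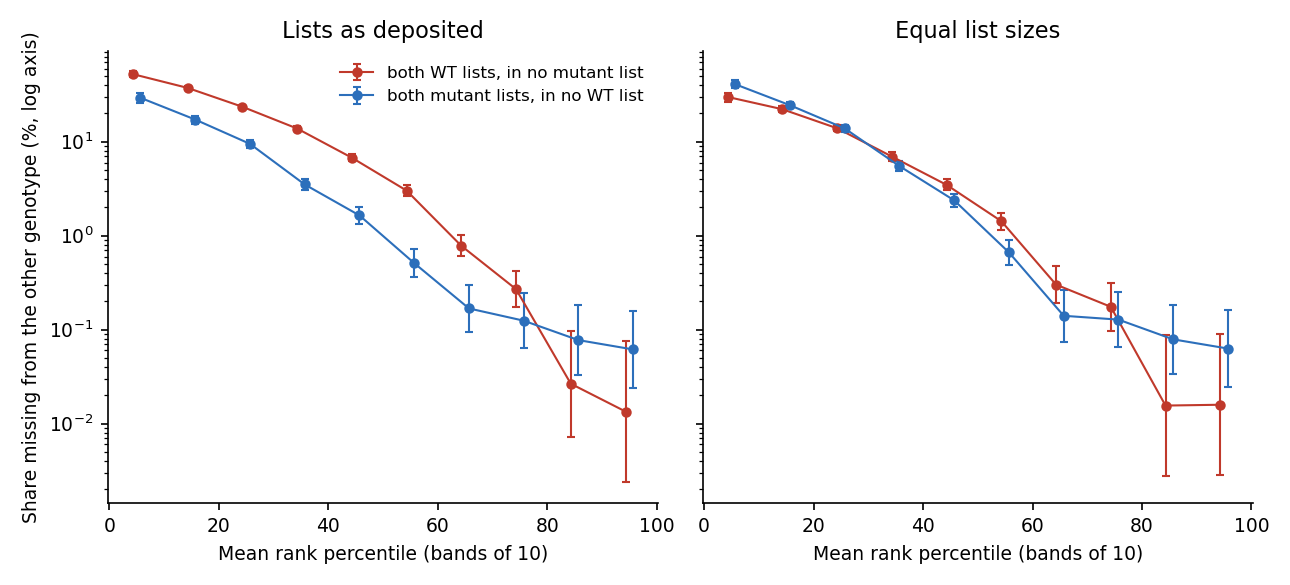
Share of regions missing from both lists of the other genotype (vertical log axis, percent) by the mean rank percentile in their own genotype (horizontal axis, bands of 10), for regions of both WT lists (red) and of both mutant lists (blue), with 95% Wilson intervals as bars. With the deposited lists the WT share is the higher one up to percentile 80. With equal list sizes it is lower in the bands up to percentile 20, alike between 20 and 30, and higher in the bands from 30 to 80. It is then 1.43% against 0.663% between percentiles 50 and 60, and in the bands above 80 it is lower again. The intervals meet in each band above 60.

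The WT-only regions join a region's absence in the mutant at 8 somites with its absence at 36 hpf. Of the regions of both WT lists, 17.9% were missing from the mutant list of 8 somites and 16.5% from that of 36 hpf. Among those missing at 8 somites, 37% (36.1 to 38%) were also missing at 36 hpf, against 12% (11.7 to 12.3%) of those present at 8 somites, an odds ratio of 4.30. Within deciles of the mean WT percentile, however, the Mantel-Haenszel odds ratio was 1.17. Regions alike in this mean can differ in strength at each stage, a higher rank at one going with a lower rank at the other. This can lower the odds ratio within deciles, and the size of that effect was not tested. The opposite direction gave nearly the same values, 4.15 without and 1.16 with division by strength. Both values within deciles depended on the measure of strength, and were 1.99 (WT) and 1.93 (mutant) when deciles were formed by fold enrichment. Under either measure the odds ratio of the WT direction was close to that of the mutant direction, and the difference between them was not tested.

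The limit of the lists could be seen at the edge of the rule. Of the WT-only regions, 2002 (53.3%) had a WT peak with an IDR over 0.05 in at least 1 list, and 371 (9.88%) had both WT peaks at an IDR of at most 0.01. By single list, 32.1% (8 somites) and 34.0% (36 hpf) of them had an IDR over 0.05. Over all regions of both WT lists this was 8.08% and 8.36%, and for mutant-only regions 41.3% and 39.7% in the mutant lists. An IDR over 0.01 was found in 73.3% and 72.8% of WT-only regions, against 24.6% and 23.8% over all regions of both WT lists. In 102 WT-only regions a WT peak sat at a −log10 IDR of exactly 1.00, the value of the limit. The same count over all regions of both WT lists was not made. Of the 102, the weakest by −log10 p-value was chr9:35302191-35302880, with a −log10 p-value of 4.42 and a fold enrichment of 2.71 at 36 hpf. The next were chr19:43308632-43309081 (5.73 and 3.20) and chr20:30340792-30341042 (6.02 and 3.24), also at 36 hpf. On the other side, 11994 regions had both WT peaks and a peak in 1 mutant list. In 1846 of them (15.4%) that single mutant peak had an IDR over 0.05, and in 55 it sat at a −log10 IDR of 1.00. Over all regions of both mutant lists, 9.29% (8 somites) and 7.93% (36 hpf) had an IDR over 0.05. Just outside the rule lay chr1:28773405-28773752, whose mutant peak at 8 somites had a fold enrichment of 3.81 and a −log10 p-value of 6.54. It was followed by chr24:15402804-15403319 (4.33 and 6.68) and chr23:38406375-38406730 (4.66 and 7.53), each again with a mutant peak of 8 somites at the limit. In rank, the mutant peaks of these 3 regions and the WT peaks at 36 hpf of the 3 just inside all lay below percentile 1 of their lists. The WT peaks at 8 somites of the 3 just inside stood at percentiles 24.0, 18.3 and 5.93.

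Because the rule left out any region overlapped by a mutant peak, some gap to the mutant lists was fixed in advance. In position, most WT-only regions lay over 1 kb from any peak of those lists. The median gap to the nearest peak of either mutant list was 4313 bp. Within 200 bp lay 4.79% (4.16 to 5.53%), within 1 kb 15% (13.9 to 16.2%) and within 10 kb 79.1% (77.8 to 80.4%) of them. For the mutant-only regions, the nearest WT peak was at a median of 3447 bp and within 1 kb in 20.6% (18.4 to 23.0%). The mixed pairs were between these values, with medians of 3869 and 3853 bp. The lists being searched were longest for the mutant-only and shortest for the WT-only regions, and the part of list length in this order was not tested. The farthest WT-only region lay 138736 bp from any mutant peak.

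**Figure D4:**
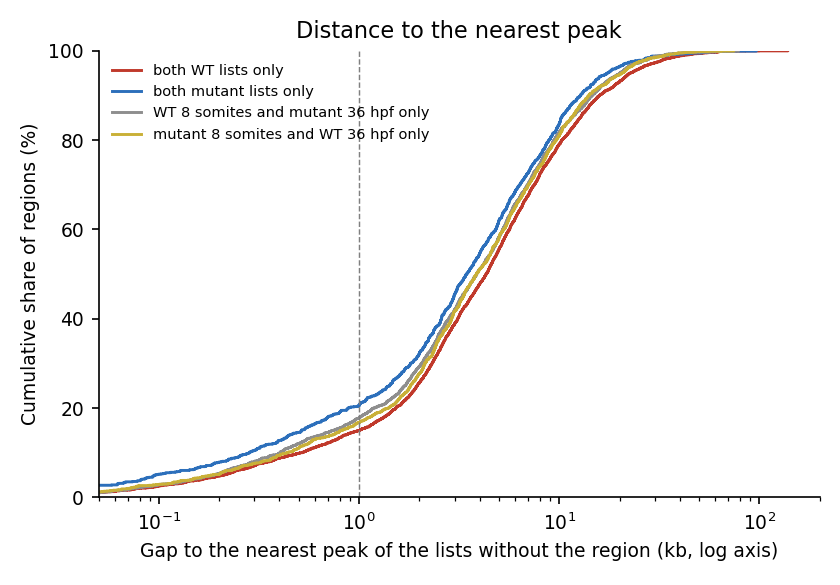
Cumulative share of regions (vertical axis, percent) by the gap to the nearest peak of the lists that lack them (horizontal log axis, kb), for the regions of both WT lists only (red), both mutant lists only (blue) and the mixed pairs (gray and yellow), with a dashed line at 1 kb. The curve of the WT-only regions lies lowest, with 15% within 1 kb against 20.6% for the mutant-only regions.

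The neighbourhood of WT-only regions resembled that of the other pairs in median density, but a larger share had no region of all 4 lists nearby. Within 50 kb on either side, the median number of other regions of any kind was 11 for the WT-only, mutant-only and mixed sets alike, and 12 over all regions of both WT lists. The median number of regions open in all 4 lists was 3 for the WT-only, mutant-only and mixed sets and 4 over all regions of both WT lists. No such shared region lay within that distance of 395 WT-only regions, or 10.5% (9.58 to 11.5%), against 7.74% (6.35 to 9.41%) of the mutant-only regions and 7.73% (6.76 to 8.82%) and 9.12% (7.85 to 10.6%) of the mixed pairs. The WT-only interval met only the last of these. Regions close to each other share their surroundings, and the intervals hold counting error only, so the difference was not tested. This share was not computed over all regions of both WT lists. The WT-only regions had a median width of 336 bp after merging (115 to 1107 bp), the same as for WT at 8 somites with mutant at 36 hpf and close to the 321 bp of the mutant-only regions, but below the 427 bp over all regions of both WT lists. This width spans all merged peaks, and most regions of both WT lists also hold mutant peaks, so this last difference was partly fixed in advance. The WT peaks alone had median widths of 293 against 349 bp at 8 somites and 283 against 343 bp at 36 hpf. Both summits of a WT-only region were within 50 bp of each other in 73.5%, with a median shift of 24 bp, against 73.8% and 23 bp for the mutant-only regions and 78.8% and 17 bp over all regions of both WT lists. In 3718 of 3754 regions there was a single peak in each WT list.

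The WT-only regions were spread over all 25 chromosomes. Their number per chromosome ranged from 82 to 214, and their share of the regions of both WT lists from 5.22% on chromosome 25 (4.24 to 6.42%) to 7.79% on chromosome 24 (6.63 to 9.13%). For 21 of 25 chromosomes the interval held the share over all. The WT-only share exceeded the mutant-only share on each of the 25 chromosomes, in the lists as deposited, where both WT lists are longer than both mutant lists. Shares by chromosome were not computed with lists of equal size. Divided into windows of 100 kb, 2697 windows held 1 WT-only region, 448 held 2 and 52 held 3 or more, with 4 as the highest number. Another WT-only region lay within 10 kb of 6.58% (5.83 to 7.42%) of them. In the mixed pair of WT at 8 somites and mutant at 36 hpf, which has fewer regions, this was 5.29% (4.50 to 6.22%). It was 3.001% (2.30 to 3.91%) in the other mixed pair and 2.38% (1.65 to 3.42%) among the mutant-only regions, both of which are smaller sets still.

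**Figure D5:**
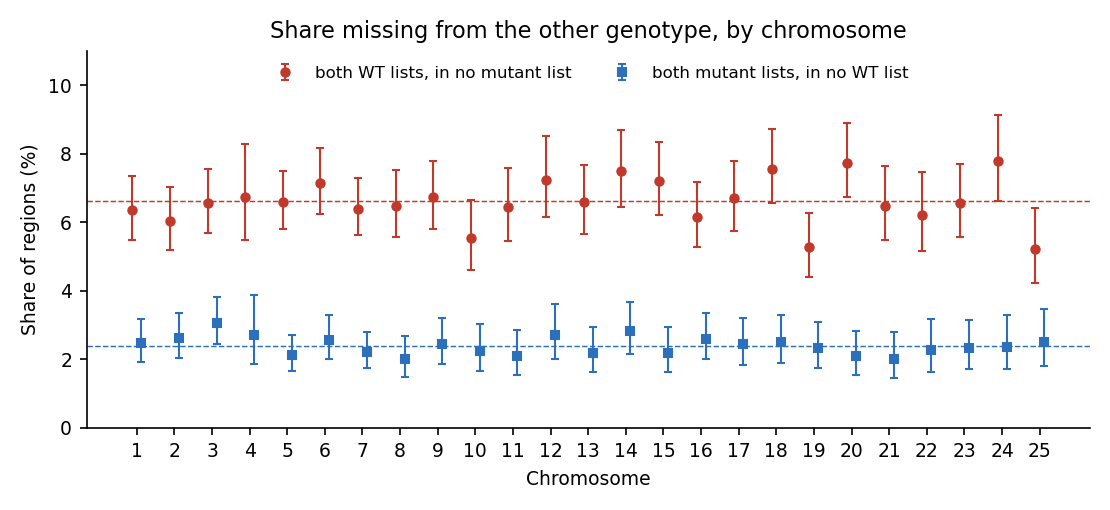
Share of regions of both WT lists in neither mutant list (red circles) and of regions of both mutant lists in neither WT list (blue squares), in percent (vertical axis), for each chromosome (horizontal axis), with 95% Wilson intervals and dashed lines at the shares over all chromosomes (6.61% and 2.39%). With the lists as deposited, the red values range from 5.22% to 7.79% and are all above the blue ones.

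There were 5 windows with 4 WT-only regions each, and they are given as examples chosen after the counts were seen. On chromosome 8, 4 of the 6 regions of both WT lists in the window were WT-only, between 6735581 and 6764621. Their percentiles at 8 somites ran from 17.7 to 69.4 and at 36 hpf from 2.66 to 24.7. The strongest of them, chr8:6764348-6764621, had a fold enrichment of 11.2 at 8 somites and 5.002 at 36 hpf, and its nearest mutant peaks were over 10 kb away. On chromosome 1, 4 of 6 regions were WT-only between 25154580 and 25193780, with percentiles of 10.8 to 62.3 at 8 somites and 0.920 to 43.2 at 36 hpf. The strongest there, chr1:25193490-25193780, had a fold enrichment of 10.2 at 8 somites and 5.18 at 36 hpf. The windows on chromosome 6 (4 of 9 regions), chromosome 24 (4 of 12) and chromosome 13 (4 of 13) held a smaller part of the WT regions around them. In each of the 5 windows, 2 or more regions were open in all 4 lists, so no window was empty in the mutant lists. These counts cover the whole window of 100 kb. On chromosome 8, no peak of either mutant list lay in the stretch between the first and the last WT-only region.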

How the data were processed

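ATAC-seq peaks were measured in 8 libraries of 4 groups. Per the labels and the methods, the authors aligned reads to GRCz10 (danRer10) with Bowtie2 and handled them with SAMtools. They removed pairs with distant mates, placed Tn5 cuts by strand offset and retained peaks by IDR on both replicates. The peak caller is not given in the sources used here. Each deposited list gives, per peak, the fold enrichment (a linear ratio), a −log10 p-value and, as the reproducibility score, the −log10 of the global IDR. Its remaining columns were not used.

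Peaks overlapping by at least 1 bp were merged. Strength was the percentile of the −log10 p-value (fold enrichment decided ties), and a region took the strongest peak of each list. Shares have Wilson 95% intervals. Odds ratios were combined over 10 strata of the mean percentile of both stages. Alternatives were stricter IDR limits, equal list sizes, ranking by fold enrichment, a 1 kb margin, 50% overlap between stages and all sequences. Regions were named by a rule: the 10 strongest and 3 on each side of the threshold, with ties in IDR broken by −log10 p-value. The members, sets and rules were chosen with earlier results of these data known, and the equal-size bands and odds ratios were added after seeing the data. Sequence motifs, GC content, genes near the regions and the gene lists were not analysed here, since no genome or annotation of GRCz10 was used. Merging was checked against bedtools and the odds ratio tested on simulated data. The simulated regions had a single strength shared by both stages, unlike the regions here. Python 3.11.15, numpy 2.4.6 and pandas 2.3.3 were used.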

Additional observations from a re-analysis of the deposited data

How the results depend on the processing

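WT-only regions outnumbered mutant-only regions under all 10 settings compared, but by little once the lists had equal size. The excess was then 1.14 times by −log10 p-value (1957 against 1710) and 1.07 times by fold enrichment (2264 against 2123). By fold enrichment the shares were 4.66% (4.48 to 4.86%) and 4.42% (4.24 to 4.60%), with intervals that met. In the other alternatives list sizes were not made equal, and the excess ran from 3.18 to 5.80 times. It was 3.18 times with all sequences and 3.66 times at an IDR of at most 0.05 in all lists (2890 against 789). At an IDR of at most 0.01 it was 4.59 times in all lists (1969 against 429). With that limit only for the genotype that has the peak it was 5.80 times (371 against 64). The number of WT-only regions moved by over 1.5 times from 3754 under 5 settings. It was 1969 at an IDR of at most 0.01 in all lists, 371 at that limit for the WT peaks alone, 1957 and 2264 with lists of equal size ranked by −log10 p-value or else by fold enrichment, and 115 above the median rank of both WT lists. The 371 and 115 regions are subsets of the 3754 by construction, and for the other counts the cause was not tested. The share of regions of both WT lists in neither mutant list left its counting interval in 7 settings. It was 5.46% and 1.03% with these IDR limits, 3.93% and 4.66% with equal sizes, 0.383% above the median rank, 5.96% at an IDR of at most 0.05 and 5.62% when a mutant peak within 1 kb counted as present. Ranked by fold enrichment, 76.1% of the regions lay below the median at 8 somites and 82.3% at 36 hpf. Against the mutant list of 8 somites or of 36 hpf alone, 11.7% or 11.9% had a peak within 1 kb, fewer because fewer peaks were searched. The odds ratios of absence were 1.99 and 1.93 with strata by fold enrichment, and the cause was not tested. Alternatives for motifs and nearby genes were not run. No paired analysis was possible because each list was made from both replicates.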
